A study of Mus musculus with 2 samples.

Results

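The EGF family ligands and receptors were described as 10 genes, chosen by name: the ligands Areg, Ereg, Hbegf, Tgfa, Epgn, Btc and Nrg1 and the receptors Egfr, Erbb2 and Erbb3. They are 10 of 22253 genes in a table of single-cell RNA counts from mouse organoids, which are epithelial cultures grown from, here, the distal small intestine. Cells of 2 control cultures and 3 Etv1 mutant cultures were sorted, marked with a hashtag per culture, pooled and sequenced as 1 RNA library with 1 hashtag library. All 5 cultures carry the reporters Neurog3-RFP and Gcg-Venus, and the cultures of a genotype are labelled as biological replicates. The kind of Etv1 mutation, the sort gate, the animals behind each culture and the age are not given in the sources used here. Every p-value below measures the spread between these 5 cultures.

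Ligands of this family are made as membrane-bound precursors that proteases such as ADAM17 cut from the cell surface. They bind EGFR or its relatives ERBB3 and ERBB4, the receptors pair up, often with ERBB2, which has no ligand of its own, and the pairs switch on the RAS to ERK and the PI3K pathways. In the intestine this signal is known for driving division in the crypt and for regrowth after injury, and organoid medium usually supplies EGF.

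After filtering, 1432 cells with 1 assigned culture were kept, 197 to 349 per culture, with 4193197 to 7254380 UMIs (unique molecules) per culture and a median of 20842 to 24126 UMIs per cell. Hashtag counts were low, with a median of 77 to 96 per cell over the cultures. The most abundant hashtag of a cell, which need not be the assigned one, made 37.4% to 65.1% of them in the median cell. Clustering gave 11 clusters. Every gene of the stem, cycling, enterocyte, goblet, Paneth, enteroendocrine and tuft marker lists had counts, while Cdh5 of the endothelial markers, Cd3e of the immune ones and Col1a1, Col1a2, Pdgfra and Dcn of the mesenchymal ones had 0 counts. Control culture 1 had the highest sum of Paneth markers, at 6832 CPM against 1033 to 2626 in the others. Its enteroendocrine sum was 634.8 against 161.9 to 191.8. Abundant genes weigh most in these sums, with Defa24 at 2890 CPM against 242.5 to 1041 and Chgb at 464.4 against 51.04 to 122.0. Other genes of the lists did not follow. Lyz1 (174.0 CPM) and Neurog3 (5.24 CPM) were lowest in control culture 1, and its Mmp7 and Itln1 were below control culture 2. Etv1, the targeted gene, measured 6.20 and 6.29 CPM (a culture's counts scaled to the same total in each) in the control cultures and 3.21, 3.06 and 3.10 CPM in the mutant cultures, from 142 counts in 29 cells. The fold change was -1.0 on the log2 scale (SE 0.23, adjusted p = 1.0 by edgeR's quasi-likelihood test with Benjamini-Hochberg adjustment). The groups did not overlap, but because the deleted or changed part of Etv1 is not stated, these counts do not check the genotype labels.

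4 of the ligand genes lie side by side on chromosome 5 of the mm10 build, in the order Epgn, Ereg, Areg and Btc, within 375.5 kb (GENCODE vM21). No annotated gene lies between Epgn and Ereg or between Ereg and Areg, which are 39.4 and 46.0 kb apart, and no protein-coding gene lies in the 208.8 kb between Areg and Btc. Areg is at chr5:91139599-91148432 on the plus strand, Ereg at chr5:91074622-91093646 on the plus strand and Btc at chr5:91357261-91402994 on the minus strand. Ereg overlaps the opposite-strand gene Gm19610, Egfr overlaps Egfros and Erbb2 overlaps Mien1, so reads of these partners cannot be told apart if counting ignored strand, which the sources do not state. The ligands are recognised by the EGF-like module, a short stretch held by 6 cysteines in a fixed spacing. The coding sequence of that module is shown for 4 of the ligands described below, Hbegf not being among them, read from the GENCODE vM21 transcripts, 5′ to 3′, with the 6 cysteine codons in capitals. Each stretch is 108 bases long.
Areg: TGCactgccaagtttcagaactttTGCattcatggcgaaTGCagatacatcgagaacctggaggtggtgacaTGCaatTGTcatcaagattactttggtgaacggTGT
Ereg: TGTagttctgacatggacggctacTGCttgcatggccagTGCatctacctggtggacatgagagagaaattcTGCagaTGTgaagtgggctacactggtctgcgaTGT
Btc: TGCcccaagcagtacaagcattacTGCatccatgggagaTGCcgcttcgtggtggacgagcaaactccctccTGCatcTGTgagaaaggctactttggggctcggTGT
Tgfa: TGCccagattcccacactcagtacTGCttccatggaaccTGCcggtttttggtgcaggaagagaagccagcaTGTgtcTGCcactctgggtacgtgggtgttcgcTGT

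The stretches were also compared outside the cysteine codons. Over the 90 remaining bases, Areg and Ereg were identical at 41, Areg and Btc at 44, and Tgfa and Btc at 51, the closest pair of the 5 ligands whose module had this length. Of the 10 members, 6 had an entry in the RefSeq promoter table (GRCm38.p6). The 250 bases upstream of the annotated start are shown for Areg and Btc, which share chromosome 5 and were highest in the same pair of clusters, as was Ereg, which had no entry, 5′ to 3′ on the gene's strand, with matches to searched motifs in capitals. The Areg window is chr5:91139349-91139598 and the Btc window chr5:91402995-91403244.
Areg upstream: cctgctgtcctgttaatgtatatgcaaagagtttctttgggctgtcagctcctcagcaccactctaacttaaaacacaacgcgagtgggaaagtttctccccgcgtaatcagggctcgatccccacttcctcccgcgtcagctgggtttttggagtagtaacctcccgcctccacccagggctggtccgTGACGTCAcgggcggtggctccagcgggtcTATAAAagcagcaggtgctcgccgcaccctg
Btc upstream: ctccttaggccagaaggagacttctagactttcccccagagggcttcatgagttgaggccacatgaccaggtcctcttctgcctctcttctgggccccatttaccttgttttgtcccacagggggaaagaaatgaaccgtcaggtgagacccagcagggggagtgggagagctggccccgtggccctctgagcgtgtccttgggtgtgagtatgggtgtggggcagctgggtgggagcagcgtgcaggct

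Searched on both strands were the cyclic AMP response element TGACGTCA, the AP-1 site TGANTCA, the ETS site CCGGAAGT, the CCAAT box and TATAAA. None of these overlapped another in the windows shown. The Areg window held TGACGTCA 61 bases and TATAAA 31 bases before the start, which 1.5% and 12.4% of all 32851 windows of this length also hold. The Btc window held none of the 5. AP-1 and ETS matches, found in 6.7% and 2.9% of all windows, were in none of the 6 member windows. A match is a description of the letters, not of binding.

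Areg, which encodes amphiregulin, a ligand of EGFR, was concentrated in cluster 1. This cluster of 150 cells is called enterocyte-like because 7 of 12 enterocyte markers passed the naming rule, but its leading genes are Lgals3, F3, Sprr2a3, Areg and Sprr2a1, and no enterocyte marker is among its top 10. In cluster 1, Areg measured 578 and 894 CPM in the control cultures and 780, 628 and 410 CPM in the mutant cultures (658 ± 187, SD, n = 5 cultures). Every culture of either genotype was thus high there. Cluster 8, the enterocyte-like cluster led by Apoa1 and Reg3b, came next at 262 ± 219 CPM (SD, n = 5), ranging from 83.7 in mutant culture 1 to 626 in mutant culture 3. The SD ranges of these clusters overlapped, and cluster 1 was above cluster 8 in 4 of 5 cultures. All other clusters had means from 14.8 CPM in cluster 9 (stem-like) to 99.3 CPM in cluster 6, and neighbours in that order overlapped. Areg was one of the genes used for clustering, as were Ereg, Hbegf and Btc, so these levels are descriptions. With the 10 members left out of the clustering, Areg stood at 660 ± 193 CPM (SD, n = 5) in the cluster led by the same genes.

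Most Areg molecules came from few cells. Cluster 1 held 58.5% of the 4446 Areg UMIs, and the richest 10% of all cells held 82.2%. Areg was found in 540 of 1432 cells, 37.8% of which held a single UMI, while the richest cell, in mutant culture 2, held 266. That cell carried 24.5% of the culture's Areg UMIs, and in control culture 2 a cell with 192 UMIs carried 23.0%. After thinning each cell to 3832 UMIs, which left 1288 cells, 58.3% of cluster 1 cells had an Areg UMI (exact 95% interval 49.8% to 66.5%), against 80.7% without thinning. The interval pools the cells of all cultures and leaves out the spread between them. Unthinned, 28 of 31 cluster 1 cells had an Areg UMI in control culture 1 and 20 of 35 in mutant culture 2. In the enteroendocrine-like cluster 7, a lineage in which the gene was among the lowest, the thinned share was 4.0% and the unthinned share 14.8%. Median depths were 27329 UMIs in cluster 1 and 9724 in cluster 7. A share at the level of cluster 7 may be free RNA and was not read as expression.

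Ereg, which encodes epiregulin, a ligand of EGFR and ERBB4, was rarer and also had most of its UMIs in cluster 1. It was found in 112 of 1432 cells with 274 UMIs, 55.5% of them in cluster 1. Its level in cluster 1 was 54.2 and 116 CPM in the control cultures and 28.5, 4.04 and 0 CPM in the mutant cultures. Both control cultures were above all mutant cultures. In mutant culture 3 the count of 0 over 19 cells of cluster 1 allows up to 6.18 CPM. Cluster 8 had 36.1 and 20.7 CPM in the control cultures and 19.7, 5.98 and 0 CPM in the mutant cultures, in the same order. That order rests on few molecules: 20.7 CPM was 5 UMIs in 13 cells and 19.7 CPM was 4 UMIs in 10 cells. The count of 0 in mutant culture 3, over 9 cells, allows up to 16.5 CPM. No Ereg UMI was found in cluster 7 (0 of 54 cells, which allows a share of up to 5.56%), cluster 9 (0 of 107, up to 2.80%) or cluster 10 (0 of 80, up to 3.75%). These limits concern cells with a UMI at the depth of each cluster, a median of 9724, 22088 and 1414 UMIs, and do not limit the cells that express the gene. The barcodes with no assigned hashtag placed in these clusters held 1 Ereg UMI in each. Of the 112 Ereg cells, 92 also held Areg (82.1%), against 33.9% of the other cells. The Ereg cells were deeper, with a median of 28513 against 21627 UMIs, so part of any shared detection goes with depth. In cluster 1, 39 of 42 Ereg cells held Areg.

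Btc, which encodes betacellulin, another ligand of EGFR and ERBB4, was highest in the same pair of clusters. In cluster 1 it measured 105 and 159 CPM in the control cultures and 84.4, 35.4 and 45.3 CPM in the mutant cultures. Here the control cultures lay above the mutant cultures, an order that was not tested for cluster 1 alone. In the enterocyte-like class, which joins clusters 1 and 8, Btc overlapped between genotypes (log2 fold change -0.48, SE 0.25). In cluster 8 the order was different, with 40.6 and 16.6 CPM in the control cultures and 39.4, 77.8 and 225 CPM in the mutant cultures. The value of 225 CPM comes from 41 UMIs in 9 cells, of which 1 cell held 33. The means over 5 cultures were 85.8 ± 49.7 and 79.9 ± 84.0 CPM (SD), and 19.9 CPM or less in every other cluster. Areg and Btc correlated across the 11 clusters with a Pearson r of 0.89, taken on log2(CPM + 1) of cluster sums with the cultures pooled. This describes clusters that share 1 library and differ in depth, with medians of 1414 to 34175 UMIs per cell. Among cells thinned to equal depth, Btc was found in 18.4% of the 261 Areg cells and in 5.4% of the rest. Within cluster 1 these shares were 28.6% of 84 cells and 8.3%.

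Hbegf encodes a ligand that binds heparan sulphate and EGFR. The gene lies at chr18:36504927-36515805 on the minus strand of mm10. Unlike Areg, Hbegf was not highest in the enterocyte-like cells alone: its mean was 91.6 ± 43.2 CPM in cluster 6, 91.3 ± 18.6 in cluster 5, 80.4 ± 32.9 in cluster 1, 60.6 ± 75.8 in cluster 10 and 57.2 ± 12.7 in cluster 8 (SD, n = 5 cultures). Cluster 10 held only 13 Hbegf UMIs, in cells with a median of 1414 UMIs. Cluster 5 is the stem-like cluster led by Edn1, Olfm4 and Lgr5, where all 8 stem markers passed the rule. Cluster 6 has no name, is led by mitochondrial genes and has a median of 5667 UMIs per cell. In cluster 5 Hbegf measured 84.5 and 82.0 CPM in the control cultures and 123, 76.9 and 89.5 CPM in the mutant cultures, so the genotypes overlapped. The other stem-like cluster, cluster 9, had 39.97 ± 22.6 CPM, and the lowest mean was 17.3 ± 16.3 CPM in cluster 7. Neighbours in the order of the 11 clusters overlapped by their SD ranges throughout.

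The enterocyte-like and stem-like classes, each of 2 clusters, set the ligands apart. The log2 ratio of the enterocyte-like to the stem-like level was 4.47 ± 0.95 (SD, n = 5 cultures) for Areg and 2.51 ± 0.59 for Btc, above 0 in 5 of 5 cultures in both cases. For Hbegf it was -0.01 ± 0.43 and above 0 in 2 of 5 cultures. The map of cluster means and the plot of 4 ligands by cluster show this contrast. The 1054 barcodes that passed the filters but had no assigned hashtag, placed in clusters by their other genes, gave 1119 CPM of Areg in cluster 1 and 382 in cluster 8, and 65.1 and 30.6 CPM of Ereg. In these barcodes Hbegf was highest in cluster 1, at 104.5 CPM against 79.9 in cluster 5, and its log2 ratio of enterocyte-like to stem-like was 0.43, unlike the value near 0 in the assigned cells. These barcodes were not used to cluster, though they come from the same library.

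**Figure D1:**
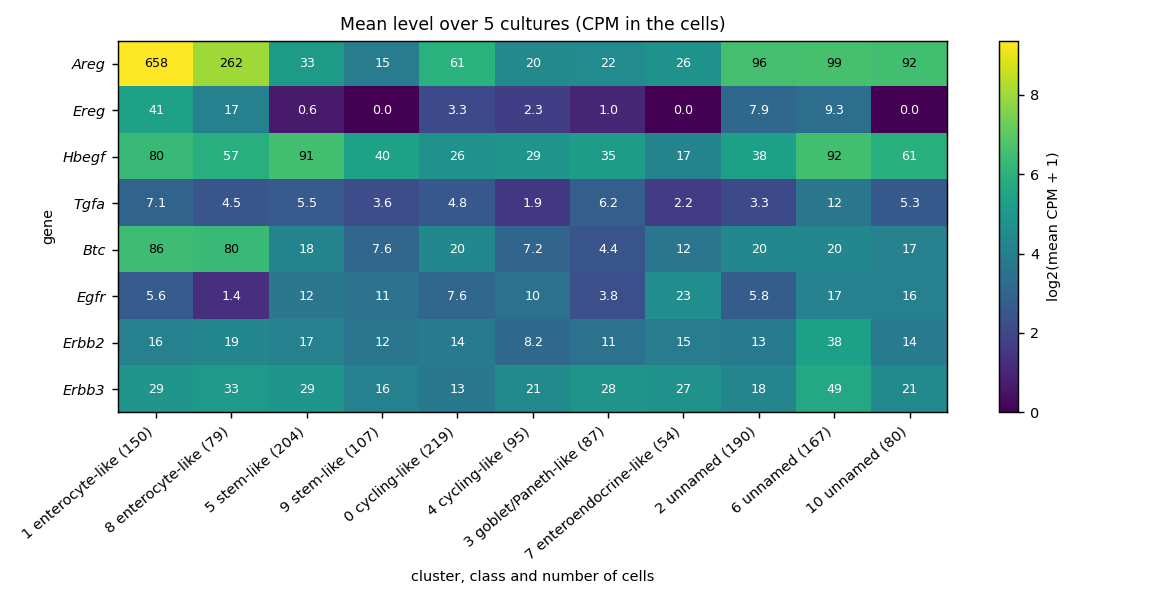
Mean CPM over 5 cultures of 8 members (rows) in 11 clusters (columns, with class and number of cells), coloured by log2 of the mean CPM plus 1. Rows are to be read across, not against each other: Areg peaks at 658 CPM in cluster 1, Btc at 85.8 there, and Hbegf is about as high in cluster 5 (91.3) as in cluster 1 (80.4).

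**Figure D2:**
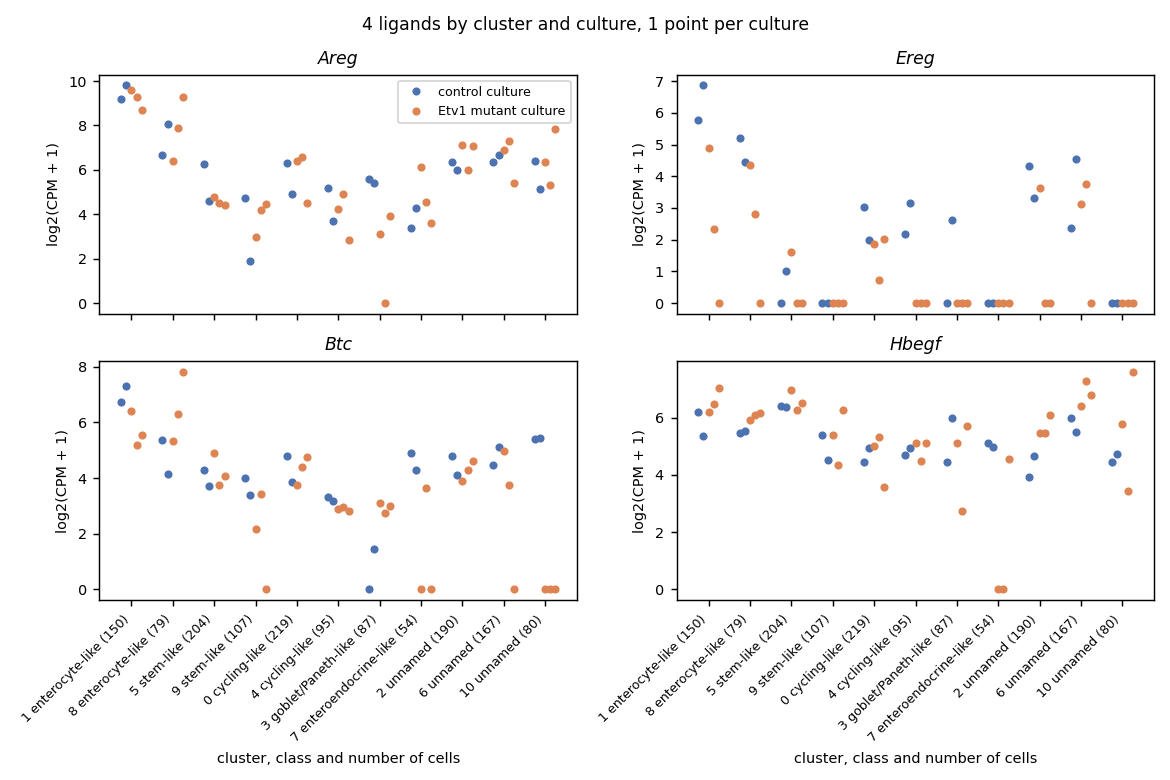
Level of Areg, Ereg, Btc and Hbegf as log2(CPM + 1) in each of 11 clusters, 1 point per culture, blue for control and orange for Etv1 mutant. Ereg points of the 2 control cultures lie above those of the 3 mutant cultures in clusters 1 and 8, while Areg points mix. In cluster 8 the nearest Ereg points, control culture 2 and mutant culture 1, come from 5 and 4 UMIs.

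The remaining ligands were scarce. Tgfa, which encodes the EGFR ligand TGF-alpha, had 161 UMIs in 147 cells, with at most 3 in a cell. Its cluster means ran from 1.89 ± 1.29 CPM in cluster 4 to 12.01 ± 10.3 in cluster 6 (SD, n = 5), and all neighbours overlapped. Epgn, which encodes epigen and lies closest to Ereg, had 3 UMIs in 3 cells, 1 in each mutant culture. Nrg1, a ligand of ERBB3 and ERBB4 known from mesenchyme, had 1 UMI, in control culture 1. Of the family members outside the 10, Erbb4 and Nrg3 had 0 counts, which allows up to 0.0961 CPM each, Egf had 14, Nrg2 had 2 and Nrg4 had 45.

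The receptors were found in each of the 11 clusters. Egfr (chr11:16752203-16918158, plus strand), the receptor of most ligands above, was highest in the enteroendocrine-like cluster 7 at 23.1 ± 6.84 CPM and lowest in cluster 8 at 1.44 ± 2.18 CPM (SD, n = 5). The values in cluster 7 were 28.6 and 12.3 CPM in the control and 29.5, 22.8 and 22.5 CPM in the mutant cultures, from 15 UMIs in 54 cells. In cluster 8 the whole count was 2 UMIs in 79 cells. Every culture's value in cluster 7 was above every value in cluster 8, although neighbours in the order overlapped. Next after cluster 7 came the unnamed clusters 6 and 10, at 16.71 ± 10.65 and 15.99 ± 12.03 CPM. Their SD ranges overlapped that of cluster 7. Clusters 7, 6 and 10 also had the lowest depth of the 11 clusters, with medians of 9724, 5667 and 1414 UMIs per cell. The part that depth has in the high Egfr levels of these clusters was not tested. The stem-like clusters 5 and 9 held 12.1 ± 5.67 and 10.6 ± 5.54 CPM of Egfr, and cluster 1, richest in Areg, 5.60 ± 3.63. Low counts limit all of this: 251 Egfr UMIs were found in 221 cells.

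Erbb2 (chr11:98412470-98437716, plus strand), the partner receptor, ranged from 8.17 ± 4.77 CPM in the S phase cluster 4 to 18.9 ± 7.32 in cluster 8 and 38.0 ± 14.1 in the low-UMI cluster 6 (SD, n = 5). Erbb3 (chr10:128567523-128589652, minus strand), which binds neuregulins and signals through PI3K, ranged from 12.8 ± 1.15 CPM in the cycling-like cluster 0 to 32.6 ± 2.27 in cluster 8 and 48.7 ± 10.1 in cluster 6. Erbb3 in clusters 6 and 8 was the only pair of neighbours, over these receptors and the ligands above, whose SD ranges did not overlap, and cluster 6 was higher in 5 of 5 cultures. Tgfa, Hbegf, Erbb2 and Erbb3 all had their highest mean in cluster 6, whose cells hold a median of 0.252 times their culture's median UMIs. The part that depth or RNA quality has in those levels was not tested.

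At the level of single cells, at least 1 of the 7 ligands was found in 67.0% of the 1432 cells and at least 1 of the 3 receptors in 57.4%, with both in 42.5%. In cluster 1, both were found in 62.0% of cells, and 62 of 150 cells held 3 or more different ligands. In cluster 7, both were found in 20.4% of cells. These shares were not thinned and follow depth, which was 27329 against 9724 UMIs in the median cell. At equal depth, Erbb3 was found in 10.7% of Areg cells and 9.4% of the rest, and Hbegf in 23.4% and 12.7%.

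The genes whose levels most resembled a member's across 35 sums of class and culture were found among 7347 genes, as a description over sums that share 1 library. For Areg these were Krt8 (Pearson r 0.86), a keratin of simple epithelia, Gsta1 (0.86), a glutathione transferase, and Lgals3 (0.85), a galectin. For Btc they were Slc26a3 (0.88), the chloride-bicarbonate exchanger of mature absorptive cells, Stradb (0.82) and Kctd6 (0.81). For Hbegf they were weaker, with Gm20547 (0.72), Tcim (0.69) and Camk2d (0.69). For Erbb2 they were Snx18 (0.90), Tdp2 (0.87) and Marchf6 (0.87), and for Erbb3 Angel2 (0.92), Ptprd (0.89) and Ankhd1 (0.89).

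The comparison between genotypes asked whether the members differ between Etv1 mutant and control cultures. In sums over all cells, fewer cells of a type and less RNA per cell cannot be told apart. Over all cells of a culture, no member passed the test: of 8 members with enough counts, 0 had an adjusted p under 0.05 by edgeR's quasi-likelihood test or by DESeq2, and 2 by edgeR and 1 by DESeq2 had an unadjusted p under 0.05. Among all 11061 genes tested, 0.00904% were called. The groups did not overlap for 2 of the 8 members, Ereg and Hbegf, where 17% of all genes did not overlap. The median log2 fold change of the 8 was 0.01, beside 0.00 for all genes tested, with 4 above and 4 below 0.

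**Figure D3:**
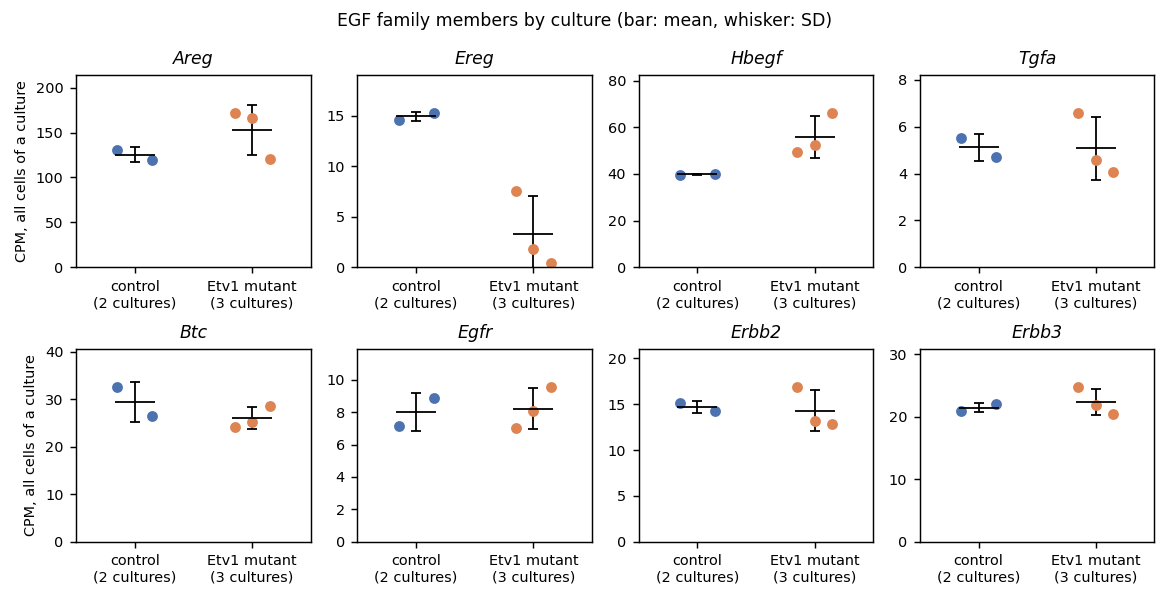
CPM over all cells of each culture for 8 members (panels, each with its own axis from 0), blue for 2 control and orange for 3 Etv1 mutant cultures, with the mean as a bar and the SD as whiskers. Ereg is lower and Hbegf higher in every mutant culture than in both control cultures, while the other 6 overlap.

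Ereg measured 14.6 and 15.3 CPM in the control cultures and 7.54, 1.83 and 0.477 CPM in the mutant cultures, from 106, 107, 47, 12 and 2 UMIs. The mutant cultures were thus all below the control cultures, and they differed widely among themselves. The fold change was -2.09 on the log2 scale (SE 0.60), with an unadjusted p = 0.0097 and an adjusted p = 1.0 by edgeR's test. The number of Ereg cells went the same way, with 40 of 323 and 39 of 349 cells in the control cultures and 25 of 282, 7 of 281 and 1 of 197 in the mutant cultures. Without mutant culture 1, the closest to the controls, the log2 fold change was -3.51 with an adjusted p of 0.158 by edgeR's test. The value depended on the hashtag calls: with MULTIseqDemux it was -0.78 (SE 0.31), with 12.7 and 16.7 CPM in the control cultures and 12.6, 7.29 and 5.61 CPM in the mutant cultures. Among the cells that both methods placed in the same culture, Ereg measured 14.3, 16.7, 8.07, 2.16 and 0.602 CPM in that order.

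Cluster 1 made up 8.70% ± 1.32 of the control cells and 11.9% ± 1.98 of the mutant cells (SD, n = 2 and 3). The part of cluster shares in the Ereg sums was not tested. Summed enterocyte markers were 1905 and 1449 CPM in the control cultures and 2010, 2767 and 1774 CPM in the mutant cultures.

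Within classes, 6 members could be tested in each of the stem-like, cycling-like and enterocyte-like classes and in the unnamed cluster 2. None of these 24 tests had an adjusted p under 0.05 by edgeR or DESeq2, while 6 by edgeR and 3 by DESeq2 had an unadjusted p under 0.05. Called were 0.0247% of all genes tested in the stem-like, 0.0217% in the cycling-like and 0% in the enterocyte-like class, and 0.04% in cluster 2. Groups did not overlap for 0 of 6 members in the stem-like class (20% of all genes), 1 of 6 in the cycling-like class (20.3%), 2 of 6 in the enterocyte-like class (16.9%) and 1 of 6 in cluster 2 (18.6%).

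In the enterocyte-like class, Ereg measured 48.3 and 89.6 CPM in the control cultures and 26.9, 4.93 and 0 CPM in the mutant cultures. The groups did not overlap, the log2 fold change was -2.64 (SE 0.69, unadjusted p = 0.0039), and the adjusted p was 1.0 by edgeR's test. With MULTIseqDemux this value was -2.60 (SE 0.64), but the classes hold only cells that HTODemux had assigned. Barcodes that only MULTIseqDemux assigned entered the fit over all cells but not this one. The closeness of the 2 values therefore does not test the hashtag calls in full. With a culture left out the fold change ranged from -4.23 (without mutant culture 1) to -2.08 (without mutant culture 2). Without a filter on low counts, edgeR gave an adjusted p of 7.5e-07, and over the other alternatives it lay between 0.878 and 1.0, so only the unfiltered fit called it. In cluster 2, whose leading genes are Atf5, Ctsc and Phlda2, Ereg measured 19.1 and 8.96 CPM in the control cultures and 11.3, 0 and 0 CPM in the mutant cultures, and the groups overlapped. In both mutant cultures at 0, the limit was 5.56 and 2.85 CPM.

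Areg showed no such order. Over all cells it measured 131 and 119 CPM in the control cultures and 172, 166 and 120 CPM in the mutant cultures. The log2 fold change was 0.28 (SE 0.16, adjusted p = 1.0 by edgeR). Its values overlapped over all cells and in every class tested. In the enterocyte-like class it had 423 and 720 CPM in the control cultures and 649, 449 and 469 CPM in the mutant cultures (log2 fold change -0.14, SE 0.23). In cluster 2 it had 81.4 and 63.6 CPM in the control and 137, 63.0 and 134 CPM in the mutant cultures (0.65, SE 0.24). In the stem-like class control culture 1 stood alone at 53.1 CPM, with 14.7 CPM in control culture 2 and 19.4, 19.9 and 20.6 CPM in the mutant cultures. That culture also had the highest sum of Paneth markers, though not of each of them, and their part in the value was not tested.

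Hbegf measured 39.56 and 39.99 CPM over all cells of the control cultures and 49.2, 52.4 and 66.1 CPM in the mutant cultures. All mutant cultures were above both control cultures, by 0.48 on the log2 scale (SE 0.14, unadjusted p = 0.0115, adjusted p = 1.0 by edgeR). With MULTIseqDemux the log2 fold change was 0.37, from 41.8 and 40 CPM in the control and 49.8, 54.3 and 56.3 CPM in the mutant cultures. The difference was wider in cluster 2, where Hbegf had 14.2 and 24.2 CPM in the control cultures and 42.7, 42.6 and 66.4 CPM in the mutant cultures (log2 fold change 1.46, SE 0.29). The unadjusted p there was 1.06e-04 and the adjusted p 0.158 by edgeR's test. That adjusted p was 0.046 without control culture 2 and 1.16e-04 without a filter on low counts, and it lay between 0.0729 and 1.0 over the other alternatives. In the enterocyte-like class Hbegf had 62.2 and 41.3 CPM in the control cultures and 69.4, 78.9 and 114 CPM in the mutant cultures (0.69, SE 0.27), again without overlap. With a culture left out that fold change ranged from 0.42 to 1.06 (without control culture 2 and without control culture 1). In the stem-like class, where Hbegf was high, the values overlapped, with 65.2 and 56.4 CPM in the control and 93.0, 57.3 and 85.8 CPM in the mutant cultures.

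The higher Hbegf values of cluster 2 stood beside higher values of early response genes, which were picked after their values were seen. Atf3, a stress-induced transcription factor, and Junb, an AP-1 subunit, rose there and were 2 of the 3 genes called, the third being Igfbp4. Atf3 had 10.6 and 20.6 CPM in the control cultures and 46.4, 42.6 and 79.7 CPM in the mutant cultures, higher by 1.94 on the log2 scale (SE 0.33, adjusted p = 0.0441 by edgeR). Junb had 80.7 and 55.6 CPM in the control and 151, 128 and 162 CPM in the mutant cultures (1.10, SE 0.18, adjusted p = 0.0441 by edgeR). Fos, Jun and Egr1 did not pass, with adjusted p of 0.0869, 1.0 and 0.175 by edgeR and no overlap of the groups. Igfbp4 had 3.54 and 2.69 CPM in the control and 37.6, 25.9 and 34.2 CPM in the mutant cultures. In the enterocyte-like class, where Hbegf did not overlap either, Atf3 had 90.04 and 74.6 CPM in the control and 63.0, 115.6 and 70.4 CPM in the mutant cultures, and Junb 210.8 and 220.5 against 163.9, 224.1 and 185.7 CPM, both with overlap. The part of these genes in the Hbegf values was not tested.

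**Figure D4:**
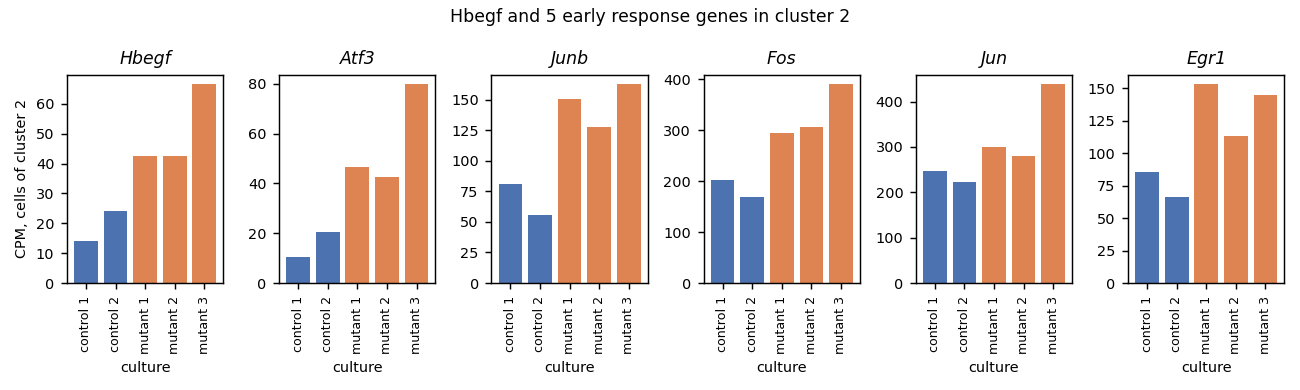
CPM of Hbegf and 5 early response genes in the cells of cluster 2, 1 bar per culture, blue for control and orange for Etv1 mutant, with axes from 0. In each panel the 3 mutant cultures are above both control cultures, and for Hbegf, Atf3, Junb, Fos and Jun mutant culture 3 is highest.

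Btc, Tgfa and the receptors overlapped between genotypes over all cells. Btc measured 32.5 and 26.6 CPM in the control cultures and 24.2, 25.2 and 28.6 CPM in the mutant cultures (log2 fold change -0.20, SE 0.14). Egfr had 7.17 and 8.86 CPM in the control cultures against 7.06, 8.10 and 9.54 CPM, and Tgfa 5.51 and 4.71 CPM against 6.58, 4.59 and 4.05 CPM. Erbb3 had 20.95 and 22 CPM in the control cultures against 24.7, 21.9 and 20.5 CPM. Erbb2 had 15.2 and 14.3 CPM in the control cultures and 16.8, 13.2 and 12.9 CPM in the mutant cultures. The fold changes of Tgfa and the 3 receptors lay between -0.04 and 0.06 on the log2 scale, and their standard errors between 0.12 and 0.28. In the cycling-like class Erbb2 had 16.5 and 14.7 CPM in the control cultures and 10.96, 9.82 and 9.23 CPM in the mutant cultures. The groups did not overlap there (log2 fold change -0.61, SE 0.25, unadjusted p = 0.0271, adjusted p = 0.982 by edgeR).

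**Figure D5:**
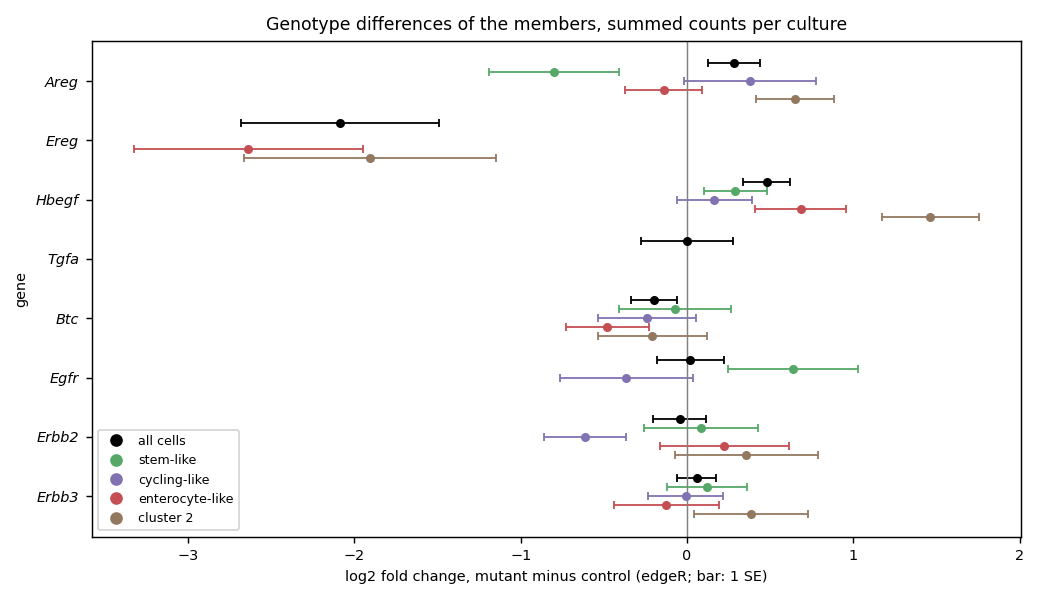
Log2 fold change of 8 members, mutant minus control, from edgeR fits over all cells (black) and within 4 groups of cells (colours), with bars of 1 standard error. Ereg lies at -2.09 over all cells and -2.64 in the enterocyte-like class, Hbegf lies above 0 in all 5 fits with 1.46 in cluster 2, and the only others more than 2 standard errors from 0 are Ereg in cluster 2, Hbegf over all cells and in the enterocyte-like class, Areg in cluster 2 and the stem-like class, and Erbb2 in the cycling-like class.

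Whether a genotype difference was itself different between the enterocyte-like and the stem-like class was tested for 7 members with a genotype by class term, and 0 passed by edgeR, with 0 at an unadjusted p under 0.05 and 0% of all 8769 genes called. The term was -3.04 (SE 2.07) for Ereg, 0.61 (SE 0.50) for Areg and 0.41 (SE 0.30) for Hbegf on the log2 scale. Ereg had only 2 UMIs in the stem-like class, 1 in control culture 2 and 1 in mutant culture 1. Its term therefore cannot decide whether its difference depends on the class. For Areg it turned with the control culture left out: it was -0.89 without control culture 1 and 1.67 without control culture 2.

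Shares of cells with a UMI were compared after thinning. Hbegf was found in 11.9% and 12.9% of cells of the control cultures and in 14.8%, 17.7% and 19.3% of cells of the mutant cultures, with no overlap. Without thinning the shares were 38.4% and 37.3% against 36.5%, 42.0% and 40.6%, which overlapped. Ereg was found in 2.32% and 3.77% against 3.29%, 0.80% and 0%, which overlapped, while unthinned shares of 12.4% and 11.2% against 8.87%, 2.49% and 0.51% did not. Areg was found in 19.9% and 17.6% against 24.3%, 19.7% and 21.0%. Erbb2 was the only other member without overlap after thinning, at 5.63% and 5.66% against 11.5%, 6.43% and 6.82%. Its unthinned shares of 27.2% and 23.5% against 29.8%, 24.9% and 22.3% overlapped. These shares were computed for the members only, so no share of all genes stands beside them. With 2 against 3 cultures 1 tail of the exact permutation test holds at least 1 of 10 arrangements, and the two-sided p used here doubles the smaller tail, so it cannot go below 0.2. No member could pass by either reading. The p of Hbegf and that of Erbb2 were both 0.2 by this exact test.

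The wider pathway was described with 61 further genes, of which 53 could be tested over all cells. None passed by edgeR or DESeq2, with 3 at an unadjusted p under 0.05 by edgeR and 1 by DESeq2. Their median log2 fold change was 0.03, with 31 above and 22 below 0, and groups did not overlap for 11 of 53, beside the 17% of all genes given above. Among the genes for ligand release, 3 of 5 were above 0. Adam17, the protease that cuts most of these ligands free, had a log2 fold change of -0.18 (SE 0.16), and Rhbdf1, a rhomboid relative that brings it to the cell surface, one of -0.22 (SE 0.18). Among the brakes on the receptors, 7 of 11 were above 0. Ndfip1, an adaptor of ubiquitin ligases, had 44.3 and 41.3 CPM in the control cultures and 34.2, 39.4 and 32.0 CPM in the mutant cultures, without overlap (log2 fold change -0.28, SE 0.12). Lrig1, a crypt protein that limits ERBB receptors, had 31.3 and 41.7 CPM in the control and 31.4, 27.4 and 31.2 CPM in the mutant cultures, and the groups overlapped (-0.29, SE 0.14).

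Among the feedback genes and targets of ERK, 10 of 15 tested were above 0. Fos, an early response transcription factor, had 341 and 296 CPM in the control cultures and 390, 395 and 442 CPM in the mutant cultures. Its log2 fold change was 0.35 (SE 0.10, unadjusted p = 0.0104, adjusted p = 1.0 by edgeR). Spry2, a feedback inhibitor of RAS to ERK signalling, had 12.8 and 11.3 CPM in the control cultures and 16.04, 14.7 and 15.02 CPM in the mutant cultures (0.33, SE 0.14). Myc had 78.6 and 86.1 CPM in the control cultures and 76.0, 68.0 and 67.3 CPM in the mutant cultures (-0.23, SE 0.09). None of these 3 overlapped between genotypes, but they were named for having the smallest p of this list. Groups did not overlap for 5 of its 15 tested genes, beside 17% of all genes. Dusp6, a phosphatase of ERK, had a log2 fold change of 0.06 (SE 0.24). In the chain from adaptors to ERK, 8 of 16 were above 0, with a median log2 fold change of -0.01. In the PI3K arm 3 of 6 were above 0, with Pik3ca at -0.21 (SE 0.15).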

How the data were processed

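The deposited RNA table holds estimated counts per gene and barcode, 95.6% of the values above 0 being whole, and the deposited hashtag table holds whole counts of 5 hashtags over 3409 barcodes. The build mm10 and the tools Salmon 1.4.0, alevin, Seurat 4.3.0 and Cell Ranger 6.1.0 come from the submitters' processing notes, without their roles. Whether counting used strand is not given either. All values of the 10 members were whole.

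Hashtags were assigned to groups by the labels, and barcodes to cultures with HTODemux (Seurat 5.3.0, positive quantile 0.99). Barcodes with several hashtags (239 of those passing) were left out, and doublets within a culture may remain, since no caller was run. Barcodes needed 500 genes and at most 25% mitochondrial counts, which left 2725. Cells were clustered with scanpy 1.11.5 (2000 variable genes, 30 components, Leiden resolution 0.8). A cluster was named when at least 3 markers of a list passed a log2 fold of 0.5 in at least 25% of its cells. The list with the largest share of such markers was taken. The name was dropped if UMIs lay over 3 times below the culture median and the top 10 genes held no marker of that list. It was also dropped if another list had more markers in the top 10. Cluster 6 (5 of 8 stem markers) and cluster 10 (6 of 10 Paneth markers) lost their names to low UMIs. The names are rebuilt from these data.

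Counts were summed per culture and rounded to whole numbers, and mutant minus control was tested with edgeR 4.0.16 (quasi-likelihood, TMM, filterByExpr, Benjamini-Hochberg over all genes, threshold 0.05) in classes with at least 20 cells in every culture. The fit was checked on simulated sums over all cells, with large changes in better expressed genes. That check does not cover small changes, low counts or the class sums. DESeq2 1.42.0, MULTIseqDemux, a mitochondrial maximum of 15%, other filters and each culture left out were alternatives. Within classes, MULTIseqDemux was applied only to cells that HTODemux had assigned. Intervals and limits cover counting error only. Named were all members, Etv1, up to 3 genes of smallest p in each pathway list and, for members at 10 CPM or more, the 3 genes most like each. Dusp6 and the early response genes of cluster 2 fall outside this rule, having been picked with their values in view. Not every gene this rule names is reported here. The members and lists were chosen with earlier results of these data known. The two-sided permutation p doubles the smaller tail, so with 10 arrangements it is at least 0.2.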

Additional observations from a re-analysis of the deposited data

Results flagged for a closer look

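In 9 of 63 sets of 5 cultures tested, 1 culture stood far from the other 4 in a member's level within a cluster. Flagged was a gap of more than 0.71 of the range. How often chance gives such a gap is not known for levels that rest on few UMIs or on 0, so the 9 are descriptions. Areg was at 74.7 CPM in control culture 1 in cluster 5, against at most 26.8 in the others. In cluster 7 it was at 68.8 CPM in mutant culture 1, over 7 cells, and in cluster 10 at 225 CPM in mutant culture 3, over 12 cells. Ereg was at 5.16 CPM in cluster 3 in control culture 2, from 3 UMIs, and at 0 in the other cultures. Hbegf was at 123.5 CPM in cluster 5 in mutant culture 1, and at 193.0 CPM in cluster 10 in mutant culture 3. Erbb3 was at 10.8 CPM in cluster 0 in mutant culture 3, at 28.7 CPM in cluster 8 in mutant culture 2 and at 31.2 CPM in cluster 9 in mutant culture 1. The 5 cultures of a set hold both genotypes.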

How the results depend on the processing

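No member and no pathway gene was called over all cells under any alternative run, and no genotype by class term was. Within classes, 2 members were called without a filter on low counts (Ereg in the enterocyte-like class and Hbegf in cluster 2) and 0 to 1 with a culture left out, against 0. Ereg over all cells stayed below 0, from -3.51 to -0.78, and Hbegf above 0, from 0.34 to 0.57. Values near 0 changed sign. With MULTIseqDemux, Tgfa was 0.12, Egfr -0.0451 and Erbb2 0.0783. With at most 15% mitochondrial counts, Tgfa was 0.0231 and Egfr -0.0305, and without the richest cell of each culture 0.00050 and -0.0074. Btc was 0.0447 with equal cell numbers. With a culture left out, Tgfa ranged from -0.23 to 0.13, Egfr from -0.11 to 0.15, Erbb2 from -0.17 to 0.0181, Erbb3 from -0.012 to 0.11 and the Areg term between classes from -0.89 to 1.67. The number of members higher in the enterocyte-like than the stem-like class in every culture was 2 to 3. No paired analysis was possible because the labels number no culture, and the numbers used here only follow the order of the hashtags. Depth limits Tgfa, Egfr, Epgn and Nrg1 most, and hashtag depth limits the culture calls.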
